A study of Mus musculus with 2 samples.

Results

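The genes described here belong, by symbol alone, to the families of proteins that move metabolites, ions and precursor proteins across the membranes of mitochondria. They are the mouse protein-coding genes whose symbols begin with Slc25a (carriers), Vdac (channels) or Timm and Tomm followed by a digit (import subunits). The rule found 75 of 21900 protein-coding genes in the RefSeq annotation of mm10: 47 carriers, 3 channels and 25 import subunits. All were set against 1 list of H3K9bhb peaks, where H3K9bhb is histone H3 carrying β-hydroxybutyrate on lysine 9.

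The series holds 2 libraries from C57BL/6 mouse CD8+ memory T cells, 1 immunoprecipitated with 4 µg of an H3K9bhb antibody and 1 of input DNA. Spleen cells of OT-I mice, whose T cells carry a transgenic receptor for an ovalbumin peptide, received that peptide (200 ng/ml) with interleukin-2 (10 ng/ml) for 3 days. Interleukin-15 (10 ng/ml) followed for 4 days, and the resulting memory-like cells were treated with β-hydroxybutyrate (BHB) for 3 days. The labels state neither the BHB dose nor the animals' age and sex, and no untreated culture was analysed here. The labels give 70 M reads for each library, and the ChIP library's list of peaks held 2315 summits of 2204 peaks. Each summit has a score, the −log10 of the peak caller's p or q value, with a median of 5.04 over the list. Because 17 summits lay on the mitochondrial genome, which has no histones, a call alone does not show the mark. Peaks report DNA and not protein or RNA, so the list cannot check the label of the cell type.

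A mitochondrion has an outer and an inner membrane. Small metabolites cross the outer membrane through the VDAC channels and the inner membrane through the SLC25 carriers, each of which exchanges or moves a narrow set of substrates. Nearly all mitochondrial proteins are made in the cytosol, enter through the TOM complex of the outer membrane and are then sorted by the TIM23 complex (presequence proteins) or, with the help of small TIM chaperones, by the TIM22 complex (carriers). Memory CD8+ T cells are known for their reliance on mitochondrial respiration.

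Peaks were assigned to genes by position, to each gene whose span, extended by 5 kb at both ends, held a summit. This held for 12 of the 75 genes (16.0%, exact 95% interval 8.55 to 26.3), and for 11.4% of all protein-coding genes. The 12 were the carriers Slc25a12, Slc25a16, Slc25a24, Slc25a25, Slc25a28, Slc25a30 and Slc25a32, the channels Vdac1 and Vdac3, and the import subunits Timm9, Timm23 and Tomm20. Carriers had a peak at 7 of 47 genes (14.9%, 6.20 to 28.3), channels at 2 of 3 (66.7%, 9.43 to 99.2) and import subunits at 3 of 25 (12.0%, 2.55 to 31.2). Each of these intervals includes the 11.4% of all genes, so no class was set apart from the background at this number of genes. The intervals also overlap each other, but overlap is no comparison of shares, and differences between classes were not tested. Intervals cover counting error only and treat genes as independent. With 1 ChIP library there is no replicate, and no test was made.

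**Figure D1:**
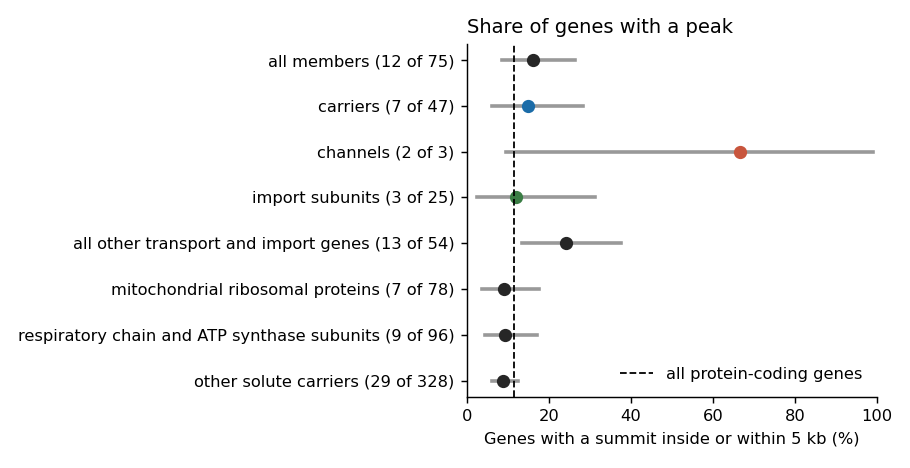
Share of genes with an H3K9bhb summit inside or within 5 kb (x axis, percent) for the members, their 3 classes and 4 other gene groups (y axis, with counts). Points are shares, grey bars exact 95% intervals and the dashed line the 11.4% of all protein-coding genes; the bars of carriers, channels and import subunits all cross that line.

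The upstream sequences of 6 members are shown to set starts with a summit nearby beside a start without one. Those of Slc25a12, Slc25a25, Slc25a28, Timm23 and Tomm20 belong to starts with a summit within 1 kb, and that of Vdac1 to a start with none. Each is the 250 bases before a listed start, 5′ to 3′ on the gene's strand, from RefSeq (GRCm38.p6, the assembly that mm10 denotes). Capitals mark matches on either strand to the words of NRF1 (GCGCATGCGC), ETS factors (CCGGAAG), YY1 (AAGATGGC), the cyclic AMP response element (TGACGTCA), SP factors (GGGCGG) and NFY (CCAAT). None of the words contains another. The windows are chr2:71367756-71368005 (minus strand), chr2:32451471-32451720 (minus), chr19:43674882-43675131 (minus), chr14:32201892-32202141 (minus), chr8:126945922-126946171 (minus) and chr11:52360601-52360850 (plus).
Slc25a12: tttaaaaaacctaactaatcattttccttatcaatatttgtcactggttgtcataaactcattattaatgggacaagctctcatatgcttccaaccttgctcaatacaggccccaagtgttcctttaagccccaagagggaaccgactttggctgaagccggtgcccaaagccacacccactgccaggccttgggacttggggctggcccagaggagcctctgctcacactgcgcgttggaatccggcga
Slc25a25: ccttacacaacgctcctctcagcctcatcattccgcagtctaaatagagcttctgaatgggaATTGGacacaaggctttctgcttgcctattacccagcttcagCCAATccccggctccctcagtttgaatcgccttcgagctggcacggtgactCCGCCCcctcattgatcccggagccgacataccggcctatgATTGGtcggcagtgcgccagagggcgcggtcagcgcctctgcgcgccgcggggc
Slc25a28: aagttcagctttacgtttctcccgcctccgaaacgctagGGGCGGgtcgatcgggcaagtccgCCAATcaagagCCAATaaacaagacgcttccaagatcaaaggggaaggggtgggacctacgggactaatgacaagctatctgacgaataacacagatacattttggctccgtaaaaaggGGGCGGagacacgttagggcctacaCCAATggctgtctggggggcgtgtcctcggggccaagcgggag
Timm23: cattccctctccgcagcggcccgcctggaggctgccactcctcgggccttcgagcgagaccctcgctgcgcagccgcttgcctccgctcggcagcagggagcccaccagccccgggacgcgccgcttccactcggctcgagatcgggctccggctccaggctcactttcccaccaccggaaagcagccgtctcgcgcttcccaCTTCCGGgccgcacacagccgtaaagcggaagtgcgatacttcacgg
Tomm20: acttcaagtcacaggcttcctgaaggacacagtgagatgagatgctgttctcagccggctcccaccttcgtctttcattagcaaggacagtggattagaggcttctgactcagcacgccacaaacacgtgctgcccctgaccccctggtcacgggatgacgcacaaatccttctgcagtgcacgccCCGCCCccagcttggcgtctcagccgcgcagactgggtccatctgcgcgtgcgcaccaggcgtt
Vdac1: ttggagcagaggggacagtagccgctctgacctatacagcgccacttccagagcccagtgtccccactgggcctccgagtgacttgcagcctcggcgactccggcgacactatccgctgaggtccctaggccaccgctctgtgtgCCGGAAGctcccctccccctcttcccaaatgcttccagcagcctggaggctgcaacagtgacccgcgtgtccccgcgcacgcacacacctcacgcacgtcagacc

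The channels came first by score and last. VDAC proteins form the pore through which ATP, ADP and small anions pass the outer membrane. Vdac1 (chromosome 11, 52360851 to 52389397, plus strand) held 1 peak with 2 summits. Its higher summit, at 52389230, scored 17.1, and 1.43% of all summits scored as high or higher. The lower one, at 52388864, scored 7.42, and 20.7% of summits scored as high or higher. Vdac3 (chromosome 8, 22577075 to 22593813) had 1 summit at 22593595, within the gene body, at a distance of 218 bp from the end with the higher coordinate. Its score was 2.51, a value shared by 109 summits, and 90.5% of summits scored as high or higher. Vdac2 had no peak, and the closest summit was 755 kb away. The 2 channel genes with a peak therefore had the highest and the lowest scores of the 12 members.

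The Vdac1 peak lay at the end of the transcript and not at its start. The 2 summits were 167 and 533 bp before the annotated transcript end. They lay 27633 and 27267 bp downstream of the nearer of the gene's 2 listed starts, at 52360851 and 52361597. The next gene of any type in the table, 9530068E07Rik, begins 7198 bp beyond the higher summit. The sequence shown above for the upstream Vdac1 start, with a GC content of 65.2% and 17 CpG dinucleotides, is thus from a place where no summit was called. Such a position was uncommon in the list. Of 2032 genes with a peak and a listed start, 32 (1.57%) had their highest summit within 1 kb of their own transcript end, nearer to it than to any other gene end, and over 1 kb from every listed start. Vdac1 had the third highest score of the 32, after Psap (43.4) and Agap2 (25.5), and their median score was 4.01. This class of genes was formed after the position of the Vdac1 summit had been seen.

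**Figure D2:**
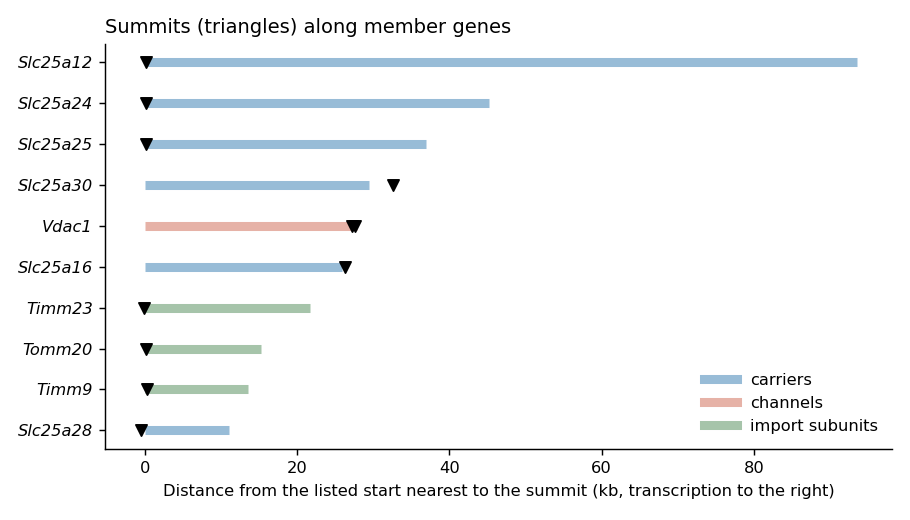
Position of the summits (triangles) along the 10 members with a peak and a listed start, as distance in kb from the start nearest to the summit (x axis); bars are the genes, coloured by class. In 7 genes the summit is at the left end of the bar, in Vdac1 and Slc25a16 at its right end, and in Slc25a30 it is 3045 bp beyond the gene.

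Among the carriers, the 2 genes of the ATP-Mg/phosphate exchange group with a peak were Slc25a24 and Slc25a25. These calcium-regulated carriers set the adenine nucleotide pool of the matrix. Slc25a25 (chromosome 2, 32414487 to 32451470, minus strand) had a summit at 32451347, 123 bp downstream of its start, with a score of 9.18. That score was among the highest 11.1% of summits. Slc25a25 has 3 listed starts, and the summit was at the one farthest upstream. That summit was also 890 bp downstream of the start of Naif1, a protein-coding gene on the other strand. Slc25a24 (chromosome 3, 109123149 to 109168409, plus strand) had a summit at 109123358, 209 bp downstream of its start, with a score of 5.41. The other 2 carriers of the group, Slc25a23 and Slc25a41, had none within 370 and 359 kb. The carrier gene next to Slc25a24, Slc25a54, had no peak under the rule, since the same summit was 6776 bp from it.

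Slc25a12 was the 1 amino acid carrier of 10 with a peak (10%, beside 11.4% of all genes). It encodes the aspartate/glutamate carrier aralar, which works in the malate-aspartate shuttle that brings reducing equivalents of NADH into the matrix. Its summit (chromosome 2, 71367618) was 137 bp downstream of the start, at the far upstream end of a gene of 93512 bp, and scored 6.63. Its paralogue Slc25a13, the other aspartate/glutamate carrier, was 743 kb from the closest summit. The upstream window of Slc25a12 shown above held 6 CpG dinucleotides and none of the 6 words, against 29 CpG dinucleotides in that of Timm23.

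Slc25a28, which encodes the iron importer mitoferrin 2, had a summit upstream of its start. The summit (chromosome 19, 43675357) lay at −476 bp from the start, outside the gene, and scored 7.56. It was also 179 bp downstream of the start of BC037704, a long non-coding RNA gene on the other strand whose start is 297 bp from that of Slc25a28. The other mitoferrin, Slc25a37, had no peak, and its closest summit was 51.2 kb away. The carriers Slc25a39 and Slc25a40, linked to glutathione transport, were 106 and 54.7 kb from a summit.

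Slc25a32, a carrier tied to the import of folate and FAD, had a summit in the gene body at 100 bp from the end with the higher coordinate (chromosome 15, 39112620), with a score of 4.54. Another protein-coding gene also lay within 5 kb of this summit, but the nearest end of a protein-coding gene was that of Slc25a32. Since Slc25a32 has no listed start, whether the summit lay at its start could not be told. For 2 more carriers the peak belonged by position to a neighbour. Slc25a16, a carrier tied to coenzyme A, was counted for a summit (chromosome 10, 62946942, score 2.77) that lay 448 bp beyond its transcript end. That score was low in the list, with 84.3% of summits scoring as high or higher. The same summit was 87 bp upstream of the start of Dna2, which encodes a nuclease and helicase of DNA replication and repair. Slc25a30, which resembles the uncoupling proteins, was counted for a summit 3045 bp beyond its transcript end (chromosome 14, 75754489, score 9.18). That summit was 4 bp from the start of Cog3, a subunit of the Golgi tethering complex COG. Slc25a30 was the member closest to the 5 kb limit on its inner side, and Slc25a33, at 6204 bp, the closest outside it.

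Several of the carriers best known for energy metabolism had no peak. None of the 4 genes of ADP/ATP and phosphate exchange had one: the closest summits were 33.7 kb from the phosphate carrier Slc25a3 and 55.3, 250.3 and 74.5 kb from the ADP/ATP carriers Slc25a4, Slc25a5 and Slc25a31. The 4 di- and tricarboxylate carriers, among them the citrate carrier Slc25a1 and the oxoglutarate carrier Slc25a11, also had none. Slc25a20, the carnitine/acylcarnitine carrier needed for oxidation of long-chain fatty acids, lay 7721 bp from a summit whose nearest gene end was that of Prkar2a. Slc25a42, which carries coenzyme A, was 25.7 kb from a summit, and Slc25a33, a pyrimidine nucleotide carrier, had as its nearest a summit by the end of Tmem201. Over the 40 carriers without a peak the distance to the closest summit ran from 6.20 to 3561 kb, with a median of 103 kb. A count of 0 of 4 allows a share of up to 60.2% (exact upper limit), so it does not set these groups apart from the 11.4% of all genes.

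In the import machinery the peaks lay at 1 gene each of the TOM complex, the TIM23 complex and the small TIM chaperones. These were 1 of 7 (14.3%), 1 of 6 (16.7%) and 1 of 7 (14.3%), beside 11.4% of all genes. Tomm20 (chromosome 8, 126930664 to 126945921, minus strand), which encodes the receptor that binds presequences at the outer membrane, had a summit at 126945754, 167 bp downstream of its start. It scored 7.80, among the highest 19.7% of summits. Another protein-coding gene also lay within 5 kb of that summit, but the nearest gene end was that of Tomm20. Timm23 (chromosome 14, 32180166 to 32201891, minus strand), which encodes a core subunit of the inner-membrane translocase, had a summit at 32202015, 124 bp upstream of its start, with a score of 4.09. Within the window shown above, the Timm23 summit lay upstream of the ETS word at −47 to −41. It was also 44 bp downstream of a start of Parg, on the other strand, which encodes the enzyme that degrades poly(ADP-ribose). Timm9 (chromosome 12, 71123172 to 71136708, minus strand), a chaperone of the intermembrane space that escorts carrier precursors with Timm10, had a summit at 71136447, 228 bp downstream of its start, with a score of 2.90. In all 3, the summit was within 228 bp of the start. A score as high or higher was held by 65.3% of summits for Timm23 and by 82.5% for Timm9.

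The other 22 import subunits had no peak. Of the TOM complex, the pore subunit Tomm40 was 36.5 kb from the closest summit, the receptors Tomm22 and Tomm70a 101 and 237 kb, and the small subunits Tomm5, Tomm6 and Tomm7 20.8, 49.1 and 186 kb. Of the TIM23 complex, Timm44, which tethers the import motor, was 20.7 kb away, Timm17b 167 kb, Timm21 261 kb, Timm17a 346 kb and the receptor Timm50 647 kb. Both listed genes of the TIM22 complex were without a peak, Timm22 at 7775 bp and Timm29 at 20.2 kb. Timm8b (11614 bp), Timm8a2 (68.6 kb), Timm13 (235 kb), Timm10b (1555 kb), Timm8a1 (4787 kb) and Timm10 (5191 kb) of the small TIM group had none. Nor did Tomm20l (13225 bp), Tomm40l (198 kb) and Tomm34 (634 kb). Over all 63 members without a peak, the median distance to the closest summit was 106 kb, with quartiles of 49.6 and 343 kb, so few lay just outside the limit.

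**Figure D3:**
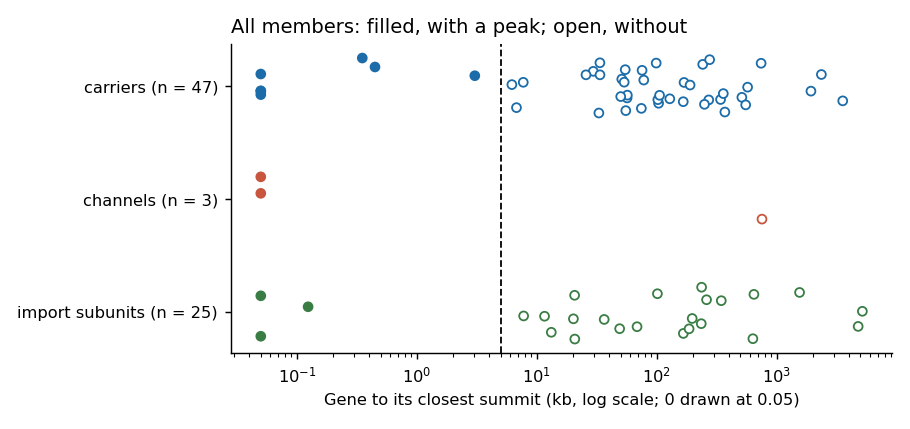
Distance from each of the 75 genes to its closest summit (x axis, kb, log scale, with 0 drawn at 0.05), by class (y axis). Filled points are the 12 genes with a peak, open points the 63 without, and the dashed line is the 5 kb limit; 3 carriers and 1 import subunit lie between 6 and 8 kb.

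Under the other ways of counting the members' share was above that of all genes by a few genes. These counts use the same summits and are not independent. With summits inside genes only, 8 members (10.7%) had a peak, beside 8.71% of all genes, and within 2 kb of a gene end 11 members (14.7%), beside 9.40%. When each summit was given only to the gene with the nearest end, 9 members (12.0%) and 9.26% of all genes had one, Slc25a16, Slc25a30 and Timm23 being lost to Dna2, Cog3 and Parg. Flanks of 10 kb gave 16 members (21.3%), beside 13.0%. Among the 50% of summits with the highest scores 7 members (9.33%) kept a peak, beside 5.82% of all genes, and in the top 10% it was 3 members (4.00%), beside 1.27%. Those 3 were Slc25a25, Slc25a30 and Vdac1. The cut-off was a score of 9.18, shared by 49 summits, and with these ties kept 11.1% of summits passed. Slc25a25 and Slc25a30 lay exactly on the cut-off, and of the 3 only Vdac1 scored above it.

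With starts known, most member peaks could be placed. Of the 12 genes with a peak, 10 have a listed start, and the highest summit was within 1 kb of a start in 7 of them (70.0%). Over all genes with a peak and a listed start the share was 78.1% (1587 of 2032). The 7 distances ran from −476 bp (upstream) to 228 bp (downstream), with a median of 137 bp downstream, beside a median of 108 bp downstream and quartiles of −33 and 230 bp for the 1587. In 5 of the 7 the summit was downstream of the start, and in Slc25a28 and Timm23 it was upstream. Within 1 kb of the transcript end lay 2 of the 10 (Vdac1 and Slc25a16), beside 3.25% of all such genes.

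**Figure D4:**
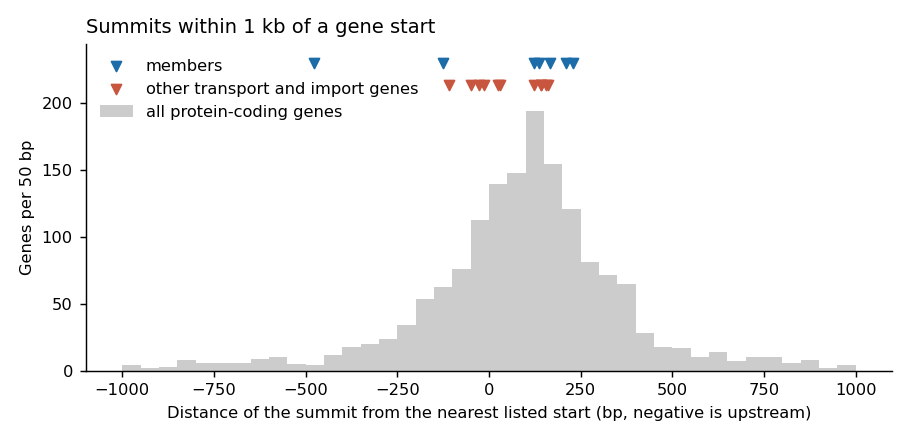
Distance of the summit from the nearest listed start (x axis, bp, negative is upstream) for all 1587 protein-coding genes with the highest summit within 1 kb (grey, genes per 50 bp), and for the 7 members (blue) and 11 other transport and import genes (red). Of the 7 members, 5 lie between 123 and 228 bp downstream.

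Another gene started close by and in the opposite direction at 4 of the 7 members with a summit at a start. The partners were Gm19391 at Slc25a24 (75 bp between starts), BC037704 at Slc25a28 (297 bp), Parg at Timm23 (58 bp) and 2700049A03Rik at Timm9 (173 bp). Gm19391 and BC037704 are long non-coding RNA genes, and the other 2 are protein-coding. Such a start within 1 kb was listed for 22.5% of all genes with a summit at a start and for 12.2% of those without. Of the 52 members with a listed start and no summit there, 8 (15.4%) had one. At Slc25a28 and Timm23 the summit was downstream of the partner's start, and at Slc25a24 and Timm9 downstream of the member's own.

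The upstream windows of members with a summit within 1 kb were not uniform in composition. Their GC content ran from 42.0% (Timm9) to 72.8% (Slc25a24), with a median of 59.6%, beside 66.4% for all promoters within 1 kb of a summit and 55.6% for all promoters of protein-coding genes. The SP word was found in 4 of the 7 (Slc25a24, Slc25a25, Slc25a28 and Tomm20, or 57.1%), in 61.5% of member promoters with no summit within 1 kb, in 74.5% of all promoters with such a summit and in 42.6% of all promoters. The NFY word was found in Slc25a25 and Slc25a28 (28.6% of the 7), with 3 matches each. It was in 40% of member promoters with no summit within 1 kb, in 31.7% of all promoters with such a summit and in 35.4% of all promoters. The ETS word was found in Timm23 (13.3% of all promoters with such a summit and 8.98% of all promoters), and among the members' starts without a summit in 15 of 65, the upstream Vdac1 start included. The NRF1, YY1 and cyclic AMP response element words were in none of the 7, in 2.39%, 1.79% and 2.87% of all promoters with such a summit and in 1.07%, 1.50% and 1.92% of all promoters. Only the exact words given above were counted, on either strand, so variants of a word were missed. A match is a run of letters and was not tested as a binding site.

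Scores of the 12 members ran from 2.51 to 17.1 with a median of 6.02, beside a median of 5.04 and quartiles of 3.33 and 6.78 over all 2489 genes with a peak. The median was 6.63 over the 7 carriers and 4.09 over the 3 import subunits, and the channels had 17.1 and 2.51. Scores are coarse: the value of 9.18 at Slc25a25 and Slc25a30 is shared by 49 summits, and that of Slc25a12 by 55.

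**Figure D5:**
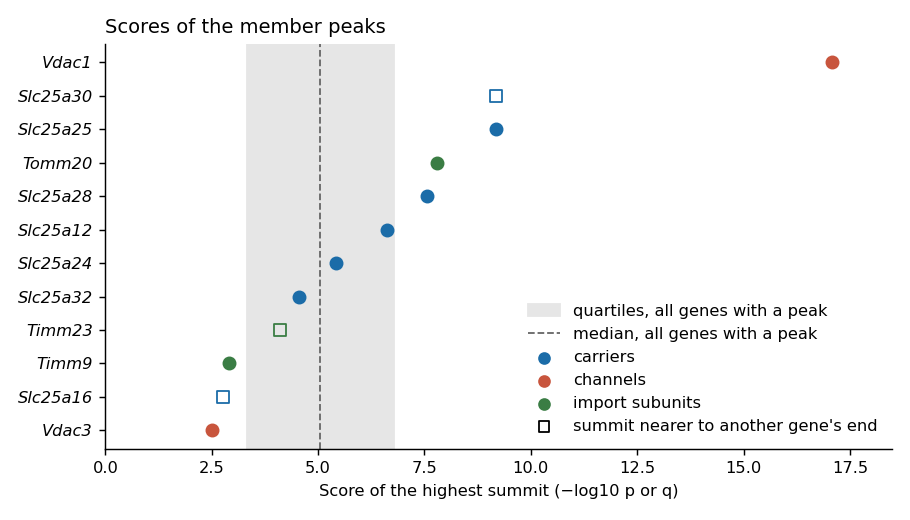
Score of the highest summit (x axis, −log10 p or q) for each of the 12 members with a peak (y axis), coloured by class. Open squares are genes whose summit is nearer to another gene's end, the grey band and dashed line are the quartiles and median of all genes with a peak; Vdac1, at 17.1, lies apart from the other 11, which reach 9.18.

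Members on the X chromosome had no peak, 0 of 6, where 1.86% of all X genes had one. These were Slc25a5, Slc25a14, Slc25a43, Slc25a53, Timm8a1 and Timm17b. On autosomes 12 of 69 members (17.4%) and 11.9% of all genes had a peak. Genes with a peak were longer. Their median length was 23795 bp among members with a peak and 12203 bp among members without, beside 31277 and 15764 bp for all genes with and without. By class, the median length was 21491 bp for carriers, 16739 bp for channels and 8317 bp for import subunits, beside 17146 bp for all protein-coding genes. Length sets how much room a gene offers for a summit, and its part in the counts was not tested.

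Import and transport genes that the symbols do not reach had a peak at 13 of 54 (24.1%, 13.5 to 37.6), beside 11.4% of all genes. These lists were written from general knowledge with earlier results of these data in view, so their share is a description. In the presequence motor, processing peptidase and matrix chaperone list 5 of 15 had a peak. They were Hspd1 and Hspe1 (both 4.83), the matrix chaperonins, which share 1 summit, Trap1 (4.27), a matrix HSP90, Grpel2 (6.35), a nucleotide exchange factor of the import motor, and Pmpca (3.20), a subunit of the presequence peptidase. The Pmpca summit was 40 bp from an end of Entr1. Of the outer-membrane insertion and intermembrane-space relay genes 2 of 8 had one: Chchd4 (11.8), the oxidoreductase that folds imported proteins, 29 bp downstream of its start, and Mtx3 (6.63), a metaxin. Of the inner-membrane insertion and quality-control genes 3 of 9 had one, the proteases Oma1 (8.34), Afg3l2 (5.11) and Spg7 (2.27).

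Among other transporters, 2 of 11 pyruvate, sideroflexin and ABC genes had a peak, the serine transporter Sfxn1 (3.06) and its relative Sfxn2 (2.12). Micu2 (3.34), a gatekeeper of the calcium uniporter, was the 1 of 8 uniporter and cation exchange genes, and the uncoupling proteins had 0 of 3. Of the 13 genes with a peak across all these other lists, 11 have a listed start. All 11 had the summit within 1 kb of it, beside 78.1% of all genes with a peak and a listed start. The median score of the 13 was 4.83, beside 6.02 for the 12 members. By symbol, mitochondrial ribosomal proteins had a peak at 7 of 78 genes (8.97%), respiratory chain and ATP synthase genes at 9 of 96 (9.38%) and solute carriers outside the SLC25 family at 29 of 328 (8.84%). The intervals of all 3 overlap that of the members, and differences from the members were not tested.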

How the data were processed

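The submitters' processing notes name mm10 as the build, Bowtie2 2.3.5, MACS2 2.1.2, and, for read quality and trimming, FastQC 0.11.8 and Trimmomatic 0.39. Peak-calling settings, use of the input as control and handling of duplicates or repeats were not given in the sources used here. Deposited was a list of 1 bp summits with the authors' −log10 p or q value (called the score), and which of the 2 it is was not settled. Depth behind single peaks is unknown, and the input library was not analysed here.

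Gene spans came from a RefSeq table and starts, with strand, from a RefSeq promoter table (250 bp before to 50 bp after each start), both of GRCm38.p6. Starts were listed for 17492 of 21900 protein-coding genes and for 59 of 75 members. All summits were used, with 5 kb flanks and a 1 kb window at starts. Motifs, GC and CpG were counted in the 250 bp upstream. The members and lists were chosen with earlier results of these data known. Named genes are the members with a peak, the 10 nearest without, all channel, TOM and TIM genes, listed genes with a peak and members of the same role. With 1 ChIP library no test was possible; shares have exact Clopper-Pearson 95% intervals. The counting code was tested on simulated summits. Alternatives covered flanks, score thresholds, summits used and assignment to the nearest gene. Nearest gene ends were sought among protein-coding genes only. Software was Python 3.11.15, scipy 1.17.1, matplotlib 3.10.9, pandas 2.3.3 and numpy 2.4.6.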

Additional observations from a re-analysis of the deposited data

How the results depend on the processing

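Fewer summits gave fewer genes by construction. In the 50% of summits with the highest scores 7 members had a peak, or 5 carriers, 1 channel and 1 import subunit. Outside the members, 5 other transport genes had one. In the top 10% it was 3 members, or 2 carriers, 1 channel and 0 import subunits, from 3 of 16 roles, with 1 other transport gene. The 2 carriers scored exactly at the cut-off, where tied summits were kept. Counting summits inside genes only, 4 carriers had a peak (8.51%, beside 8.71% of all genes). With either gene end in place of the start, 11 of 12 members had a summit within 1 kb of an end (91.7%, beside 73.4% of all genes with a peak), against 7 of 10 for starts. Flanks of 10 kb added Slc25a20, Slc25a33, Slc25a54 and Timm22. With other flanks, gene ends only or nearest genes only, the counts of all members, of each class, of roles with a peak and of all other transport genes were otherwise within 1.5 times of those reported. Some counts within single roles and lists moved by more, such as 0 in place of 1 TIM23 gene and 3 in place of 5 presequence genes with summits inside genes only. Using the highest summit of each peak changed no member. Leaving out summits scoring over 20, chosen after seeing the data, kept all 12. No paired analysis was possible because the series has 1 ChIP library and no test.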
